A study of Mus musculus with 4 samples.

Results

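The genes described here are 9 genes of Nodal signalling, of the node and of left-right patterning: Nodal, Gdf1, Gdf3, Tdgf1, Cfc1, Lefty1, Lefty2, Dand5 and Noto. They were chosen by name, each as the row whose symbol in the deposited tables equals the gene's symbol, out of 36808 genes. Directional mRNA-seq was run on whole mouse embryos of 2 genotypes and 2 stages, with 1 library for each of the 4 groups. The groups were wild type and Tc/Tc at E7.5 to 8.0, called E8 here, and wild type and Tc/Tc at E10.0 to 10.5, called E10, all with (C3H/HeH x 101/H)F1 as the strain of origin. The Tc allele affects T, also called Brachyury, a T-box factor of the primitive streak and notochord, and the mutants were homozygous in every tissue. How many embryos went into a library is a number not given in the sources used here. With 1 library a group there is no replicate check, no difference below was tested against the spread between embryos, and in whole embryos fewer cells of a type and less RNA per cell cannot be told apart.

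Nodal is a ligand of the TGF-beta family that induces mesendoderm at gastrulation and later marks the left side of the body. It binds activin receptors together with an EGF-CFC co-receptor, Tdgf1 (Cripto) or Cfc1 (Cryptic), and the signal reaches the nucleus through Smad2 and Smad3 with Smad4 and Foxh1. Gdf1 and Gdf3 are related ligands that use the same co-receptors, while Lefty1, Lefty2, Dand5 (Cerl2) and Cer1 are secreted inhibitors. At the node, the pit at the front end of the primitive streak, rotating cilia drive a leftward flow. Dand5 transcripts then become lower on the left side of the mouse node, and Nodal activity spreads into the left lateral plate. Noto is a homeobox factor of the node and notochord that is needed for those cilia.

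These genes were scarce in whole embryos. Values are FPKM, read fragments divided by transcript length and by library size, a scale on which genes of different length can be compared. Of the 9 genes, 3 reached 1 FPKM in wild type E8, 1 in Tc/Tc E8, 1 in wild type E10 and 3 in Tc/Tc E10, where the median gene above 0 stood at between 4.33 and 4.78 FPKM. Lefty1 had no estimate in any table. Rows at 0 in both columns of a table are called not estimated, and 16997 to 17933 genes of a table are in that state. They are not read as 0, because some had a value above 0 for the same library in another table. These were 158 genes in wild type E8, 410 in Tc/Tc E8 and 483 in wild type E10. Nodal was not estimated at E10 in the genotype table, nor Dand5 at E8.

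The 4 comparisons use log2((FPKM + 1)/(FPKM + 1)). This scale makes the ratios of low genes smaller than they are. The size rule is an absolute log2 ratio of 1 or more, asked of genes that reached 1 FPKM in either library. By that rule 7.22% of 13547 genes differed between Tc/Tc and wild type at E8 and 8.03% of 14265 at E10. From E8 to E10 the shares were 12.5% of 14239 genes in wild type and 11.8% of 13845 in Tc/Tc. At E8, 571 genes were higher and 407 lower in Tc/Tc, and 385 and 572 after rescaling to equal totals. At E10 the counts were 705 and 440, and 487 and 568 after centring on the median of all genes, which was 0.161. In the Tc/Tc stages they were 1066 and 564, and 839 and 726 after centring on a median of 0.124. The only error the files hold comes from libraries estimated in a pair of tables. Among genes of 1 to 5 FPKM, the SD of the log2 difference between both estimates was 0.0721 in wild type E8, 0.2 in Tc/Tc E8 and 0.196 in wild type E10. Among genes of 0.1 to 1 FPKM it was 0.0497 to 0.0689. Among genes of 5 FPKM or more it was 0.0651 in wild type E8, 0.288 in Tc/Tc E8 and 0.305 in wild type E10. Single genes of that level differed by up to 9.13 in Tc/Tc E8 and 8.87 in wild type E10.

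**Figure D1:**
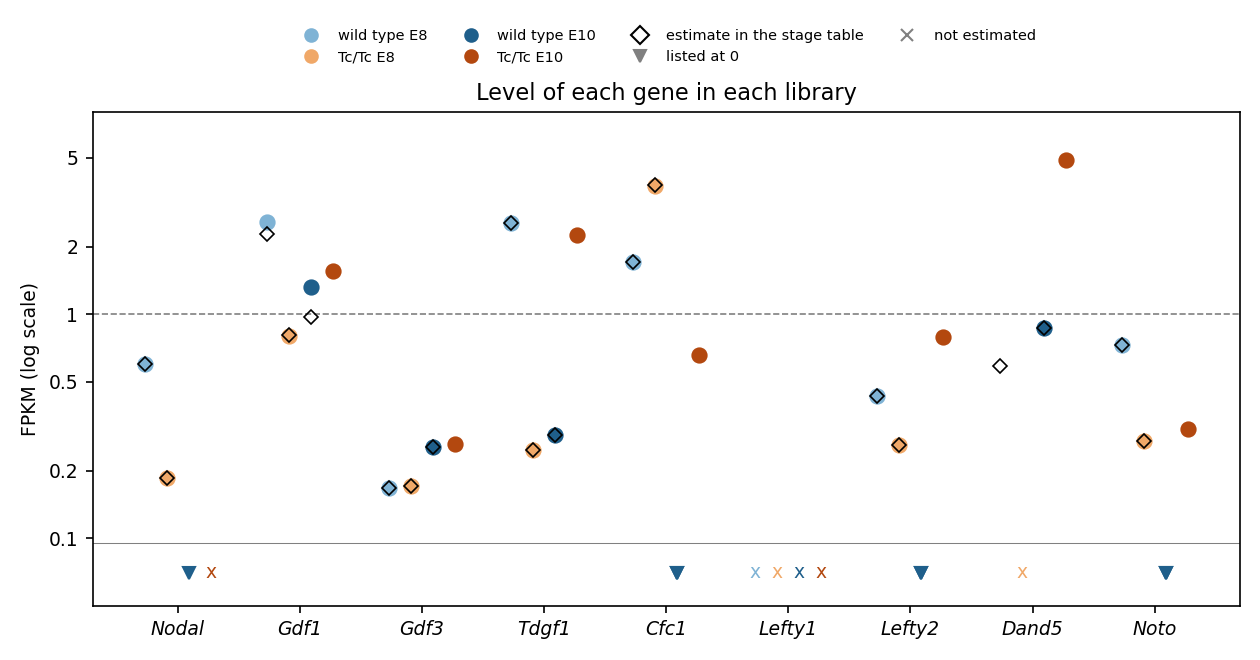
FPKM (log axis) of the 9 genes in the 4 libraries, ordered as ligands, co-receptors, inhibitors and Noto. Filled circles are estimates from the genotype tables and open diamonds those of the same library from a stage table; triangles mark genes listed at 0, crosses genes without an estimate, and the dashed line 1 FPKM. Most points sit below that line, and Dand5 in Tc/Tc E10, at 4.87 FPKM, is the highest.

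Among the ligands, Nodal itself was below 1 FPKM in every library where it was estimated. Nodal (ENSMUSG00000037171) stood at 0.597 FPKM in wild type E8 and at 0.186 in Tc/Tc E8, and both stage tables gave the same values. The wild-type stage table has 0 for it at E10, and the fold change in the authors' deposited table of the Tc/Tc stages is infinite and negative, which puts Tc/Tc E10 at 0 as well. Nodal was therefore seen at E8 and not at E10 in both genotypes. At E8 it was lower in Tc/Tc, 3.21-fold as a plain ratio of FPKM. On the FPKM + 1 scale its log2 ratio was -0.43, short of the size rule, and both values were under 1 FPKM. In wild type E8, 22.7% of the 18314 genes above 0 had a lower value than Nodal.

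Gdf3 (ENSMUSG00000030117), a ligand of the early epiblast, was the lowest of the estimated genes in both E8 libraries. It was at 0.167 FPKM in wild type E8, 0.172 in Tc/Tc E8, 0.256 in wild type E10 and 0.263 in Tc/Tc E10. The genotypes had nearly the same value at each stage, with log2 ratios of 0.01 at E8 and at E10. Both E10 values were higher than both E8 values, by a log2 ratio of 0.11 in each genotype.

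Gdf1 (ENSMUSG00000055694), the ligand that pairs with Nodal in the mouse node and lateral plate, was the highest of the 9 genes in wild type E8 in the genotype table, with Tdgf1 next to it. It stood at 2.59 FPKM in wild type E8, 0.803 in Tc/Tc E8, 1.33 in wild type E10 and 1.56 in Tc/Tc E10. The Tc/Tc E8 library was the low one of the 4. Its log2 ratio to wild type at E8 was -0.99, just short of the size rule. Rescaling to equal totals gave -1.13 and centring on the median of all genes gave -1.05, both past the rule, while the other estimates of these libraries, 0.808 and 2.28 FPKM, gave -0.86. At E10 the log2 ratio was 0.14, and -0.02 after centring.

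The reads of Gdf1 overlap with those of a partner gene. In the mouse, Gdf1 lies downstream of the ceramide synthase gene Cers1, called Lass1 in the files, on a shared transcript. In the GENCODE M21 transcripts, 100% of the 50-base stretches of Gdf1 also occurred in Cers1, and 41.6% of those of Cers1 in Gdf1. RefSeq gives both genes the same start window, chr8:70315525-70315824 on the plus strand of GRCm38.p6, shown here because both genes had their lowest values in the same library. Gdf1 has a second RefSeq window of its own, chr8:70329515-70329814 on the plus strand, with 59% G or C and 8 CpG dinucleotides. The shared window reads:
Gdf1 and Cers1: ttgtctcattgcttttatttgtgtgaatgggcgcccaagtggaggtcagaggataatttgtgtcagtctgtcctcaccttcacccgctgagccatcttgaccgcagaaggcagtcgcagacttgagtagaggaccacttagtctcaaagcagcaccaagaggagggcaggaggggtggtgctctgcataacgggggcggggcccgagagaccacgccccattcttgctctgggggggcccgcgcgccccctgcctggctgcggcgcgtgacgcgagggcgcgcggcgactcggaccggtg
The shared window held 22 CpG dinucleotides and 62.7% G or C, against medians of 7 and 52.7% over 32851 windows of 300 bases. Lass1 stood at 1.57 FPKM in wild type E8, 0.106 in Tc/Tc E8, 0.993 in wild type E10 and 0.484 in Tc/Tc E10. It was lower in Tc/Tc at E8 past the rule, with a log2 ratio of -1.22.

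Gdf1 and Lass1 were therefore also added up. Their sum, added after the data were seen, was 4.16 FPKM in wild type E8 and 0.909 in Tc/Tc E8, a log2 ratio of -1.43. At E10 the sums were 2.32 (wild type) and 2.05 (Tc/Tc), with a log2 ratio of -0.12. Gdf1 made up 62.3% of the sum in wild type E8 and 88.4% in Tc/Tc E8, and 57.3% and 76.4% at E10. As 100% of the 50-base stretches of Gdf1 occur in Cers1, these shares rest on how shared reads were divided. That division is not given, and the separate levels of Gdf1 and Lass1 rest on it too. In wild type E10 both partners moved together between tables, from 0.975 and 0.644 FPKM in the stage table to 1.33 and 0.993 in the genotype table.

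**Figure D2:**
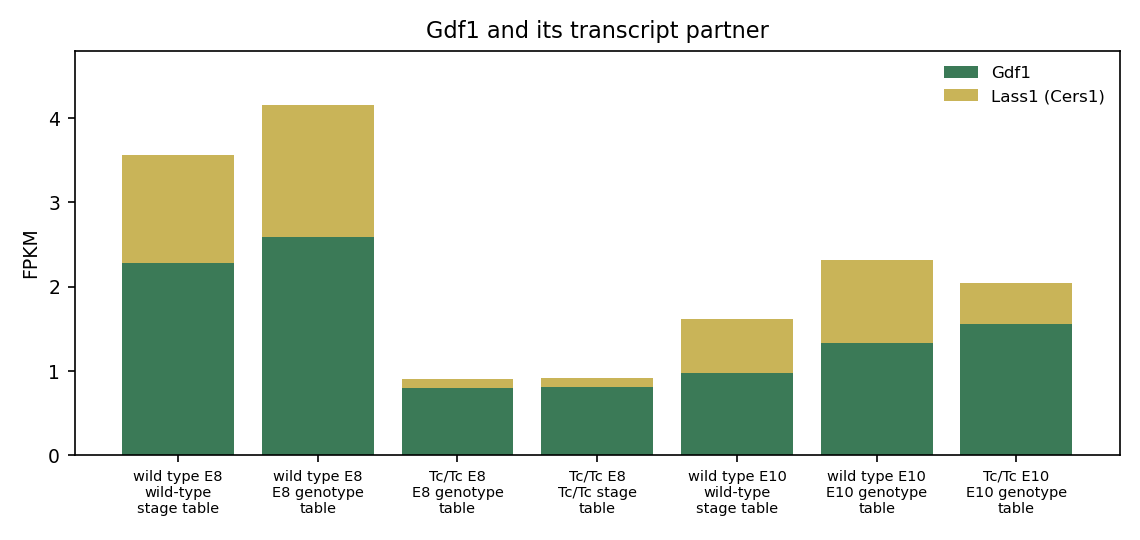
Stacked bars of the FPKM of Gdf1 and Lass1 (Cers1) in each library and table, from 0. Both estimates of Tc/Tc E8, with sums of 0.909 and 0.915, are the lowest bars, and the Lass1 share is the smallest there.

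The co-receptors differed from each other. Tdgf1 (ENSMUSG00000032494), the co-receptor of the epiblast and streak, stood at 2.56 FPKM in wild type E8, 0.248 in Tc/Tc E8, 0.289 in wild type E10 and 2.27 in Tc/Tc E10. It was high in wild type at E8 and in Tc/Tc at E10, and low in the other libraries. The second estimates of the same libraries were 2.56, 0.248 and 0.289 FPKM, so these 3 values did not depend on the table. Tc/Tc E10 has no second estimate. In Tc/Tc the log2 ratio to wild type was -1.51 at E8 and 1.34 at E10, past the rule at both stages, in opposite directions. As plain ratios of FPKM, it was 10.3-fold lower at E8 and 7.88-fold higher at E10. Of 12869 genes measured at both stages, 36 (0.28%) were lower at E8 and higher at E10.

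Over time the direction of Tdgf1 also depended on genotype. From E8 to E10 the log2 ratio of wild type was -1.47 and that of Tc/Tc was 1.39. Of 13257 genes measured in both stage comparisons, 49 (0.37%) were lower in wild type and higher in Tc/Tc. The stage and genotype comparisons share libraries, so these are the same 4 values read another way. In the authors' deposited tables the p-value of Tdgf1 was 0.267 for the genotypes at E8 and 0.296 at E10, from a test that the headers do not name and that rests on 1 library a group. For Gdf1 the authors' deposited tables give 3.11e-15 at E8, from a smaller ratio, and for Cfc1 0.343. In GENCODE M21, 8.86% of the 50-base stretches of Tdgf1 also occur in the pseudogene Tdgf1-ps1, so a part of its reads can be shared.

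The RefSeq start window of Tdgf1, chr9:110946109-110946408 on the minus strand of GRCm38.p6, is shown because this gene passed the rule in all 4 comparisons. Capitals mark matches to AATNNACA, a FOXH1-type site, on either strand; no match overlapped a T-box element, searched as TCACACCT:
Tdgf1: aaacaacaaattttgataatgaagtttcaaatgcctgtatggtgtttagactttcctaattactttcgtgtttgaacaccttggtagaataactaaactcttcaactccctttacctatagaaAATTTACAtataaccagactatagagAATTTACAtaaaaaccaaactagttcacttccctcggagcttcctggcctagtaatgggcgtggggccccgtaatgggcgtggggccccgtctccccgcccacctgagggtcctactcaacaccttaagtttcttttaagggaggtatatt
The window held 2 matches, at positions -127 and -101 from the annotated start. Of 32851 windows, 12.2% held at least 1 match and 1.43% held 2 or more. The Tdgf1 window had 41.7% G or C, against a median of 52.7%, and windows of like content were not compared. No other of the 6 genes with a window (Nodal, Tdgf1, Cfc1, Dand5, Gdf1, Noto) held this site, and none held TCACACCT, which occurred in 1.28% of all windows. A match of letters is not a bound site, and its absence in 300 bases says nothing of distant elements.

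Cfc1 (ENSMUSG00000026124), the co-receptor of the node, head process and lateral plate, stood at 1.72 FPKM in wild type E8, 3.76 in Tc/Tc E8 and 0.661 in Tc/Tc E10, and was listed at 0 in wild type E10. It was higher in Tc/Tc at both stages and lower at E10 than at E8 in both genotypes. Tc/Tc E8 was thus the library with the highest Cfc1 and the lowest Tdgf1. The log2 ratio of Tc/Tc to wild type at E8 was 0.81, within the size rule, and the E10 pair was under 1 FPKM. From E8 to E10 Cfc1 was lower past the rule in both genotypes. The log2 ratio was -1.52 in Tc/Tc, and in wild type no fold is given against a value of 0. The start window of Cfc1, chr1:34535398-34535697 on the plus strand of GRCm38.p6, is set beside that of Tdgf1 because both co-receptors were high in different libraries:
Cfc1: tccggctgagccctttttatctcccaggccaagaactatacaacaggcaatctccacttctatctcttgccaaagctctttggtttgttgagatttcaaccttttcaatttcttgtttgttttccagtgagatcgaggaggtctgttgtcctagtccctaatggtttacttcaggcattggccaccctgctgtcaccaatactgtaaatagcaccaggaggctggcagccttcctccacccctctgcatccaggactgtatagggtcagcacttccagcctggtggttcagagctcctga
It held neither motif and 2 CpG dinucleotides, against 7 in the window of Tdgf1.

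**Figure D3:**
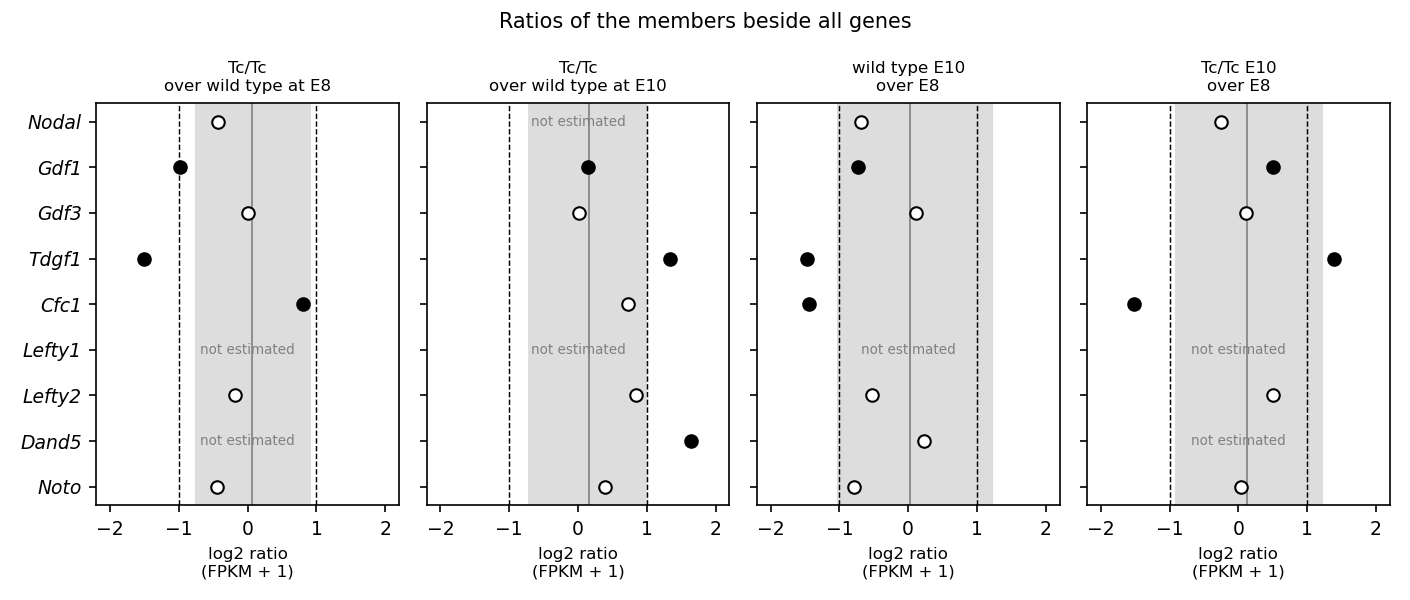
Log2 ratios of (FPKM + 1) of the 9 genes in the 4 comparisons; filled points are genes with 1 FPKM or more in 1 or both libraries, open points are below that in both. The grey band spans the 5th to 95th percentile of all measured genes and dashed lines the size rule; Tdgf1 lies outside both in every panel, at -1.51, 1.34, -1.47 and 1.39.

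Of the inhibitors among the 9 genes, Dand5 passed the rule at E10, Lefty2 stayed under 1 FPKM and Lefty1 was not estimated. Dand5 (ENSMUSG00000053226), the Nodal antagonist expressed at the edges of the node, stood at 0.867 FPKM in wild type E10 and 4.87 in Tc/Tc E10. Wild type E8 was at 0.587 FPKM according to the wild-type stages, and Tc/Tc E8 was not estimated in either table. Of the 3 libraries with an estimate, Tc/Tc E10 was the one above 1 FPKM. Its log2 ratio to wild type E10 was 1.65, and 1.49 after centring. The second estimate of wild type E10 was also 0.867. The Tc/Tc E10 value rests on the genotype table alone: the authors' deposited table of the Tc/Tc stages gives Dand5 a ln fold change of 0 and a p-value of 1, as it does for genes without an estimate. In wild type the log2 ratio of E10 over E8 was 0.23, from values under 1 FPKM. No 50-base stretch of Dand5 occurred in another gene of GENCODE M21. Its start window, chr8:84822774-84823073 on the minus strand of GRCm38.p6, is shown as that of the other gene higher in Tc/Tc at E10:
Dand5: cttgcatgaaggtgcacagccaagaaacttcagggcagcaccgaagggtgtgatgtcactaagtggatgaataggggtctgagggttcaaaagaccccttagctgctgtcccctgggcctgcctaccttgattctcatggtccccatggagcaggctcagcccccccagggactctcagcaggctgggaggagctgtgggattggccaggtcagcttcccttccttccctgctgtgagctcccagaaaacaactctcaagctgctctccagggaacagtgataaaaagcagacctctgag
It held neither motif and 1 CpG dinucleotide.

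Of the Lefty genes, feedback inhibitors that Nodal signalling itself induces, Lefty2 alone had estimates. Lefty2 (ENSMUSG00000066652), a marker of nascent mesoderm and of the left lateral plate, was at 0.431 FPKM in wild type E8, 0.261 in Tc/Tc E8 and 0.794 in Tc/Tc E10, and was listed at 0 in wild type E10. All values were under 1 FPKM, with Tc/Tc E10 the highest. Lefty1, which marks the left floor plate, was at 0 in both columns of each table (ENSMUSG00000038793). It is therefore not estimated, and its level is unknown. In GENCODE M21, 17.9% of the 50-base stretches of Lefty1 occur in Lefty2 and 12% of those of Lefty2 in Lefty1. The deposited tables do not say how such reads were divided.

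Noto (ENSMUSG00000068302), the node and notochord factor, was at 0.733 FPKM in wild type E8, 0.272 in Tc/Tc E8 and 0.306 in Tc/Tc E10, and was listed at 0 in wild type E10. Wild type E8 was the highest and wild type E10 the lowest, with both Tc/Tc libraries between them. The log2 ratio of Tc/Tc to wild type at E8 was -0.45, below the size rule.

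Read as a group, 1 of the 3 measured genes was lower in Tc/Tc at E8, against 3% of all genes, and none was higher, against 4.21%. At E10, 2 of 3 were higher, against 4.94% of all genes, and none was lower, against 3.08%. From E8 to E10, 2 of 3 were lower in wild type, against 5.15%, and none was higher, against 7.36%. In Tc/Tc 1 of 3 was higher, against 7.7%, and 1 lower, against 4.07%. The others of the 9 were below 1 FPKM in both libraries (4 at E8, 4 at E10, 5 in the wild-type stages, 4 in the Tc/Tc stages) or not estimated (2, 2, 1 and 2). With 3 genes measured, these counts describe Tdgf1, Cfc1, Dand5 and Gdf1 rather than the pathway. A scarce gene can count as measured only through the library where it is higher. Tdgf1 and Dand5 did so through Tc/Tc at E10, and Tdgf1 and Gdf1 through wild type at E8. In the wild-type stages Tdgf1, Cfc1 and Gdf1 did so through E8. Being measured and passing the rule are thus linked in these genes, and setting their shares beside those of all genes is no test.

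The rest of the pathway was described by 51 further genes in 7 lists. Of these, 2 of 43 measured were higher (4.65%) and 3 lower (6.98%) in Tc/Tc at E8, against 4.21% and 3% of all genes. The share higher at E8 was thus near that of all genes. At E10 6 of 40 were higher (15%) and none lower, against 4.94% and 3.08%. The median log2 ratios of the pathway genes were 0.02 and 0.25, beside 0.055 and 0.161 for all genes. In wild type 8 of 42 were lower (19%) and 2 higher (4.76%) from E8 to E10, against 5.15% and 7.36% of all genes. In Tc/Tc 4 of 41 were lower (9.76%) and 3 higher (7.32%), against 4.07% and 7.7%. Foxh1, Cer1 and Sox17 were lower at E10 in both genotypes. Mixl1, Lhx1, T, Foxd4 and Pkd1l1 passed as lower in wild type, and Eomes in Tc/Tc. Ccdc40, a cilium assembly factor, passed as higher in both, Pmepa1 in wild type, and Shh and Dll1 in Tc/Tc. Pmepa1 and Ccdc40 depend on the table: with the other estimates their log2 ratios were 0.91 for Pmepa1 in wild type, and 0.64 and 0.85 for Ccdc40 in wild type and Tc/Tc. Between genotypes at E10, the other estimate of wild type gave Pmepa1 a log2 ratio of -1.35, past the rule as lower, against -0.79 in the genotype table.

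**Figure D4:**
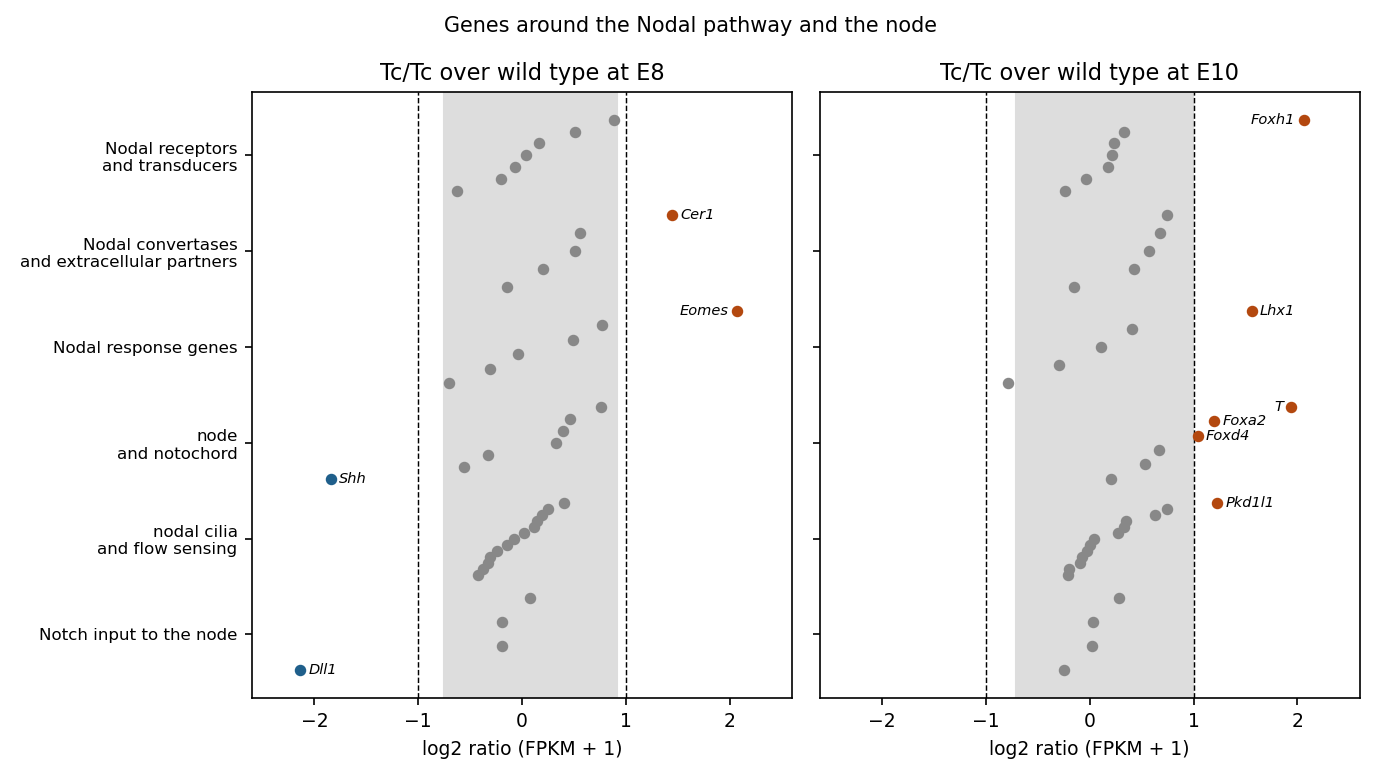
Log2 ratios of (FPKM + 1), Tc/Tc over wild type at E8 (left) and E10 (right), for measured genes of 6 lists, 1 point a gene; Lass1 is not drawn. Grey bands span the 5th to 95th percentile of all genes and dashed lines the size rule. Coloured and named points passed it: Cer1, Eomes, Shh and Dll1 at E8, and Foxh1, Lhx1, T, Foxa2, Foxd4 and Pkd1l1 at E10.

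Of the receptors and transducers, Foxh1 alone passed the rule between genotypes. At E8 none of 7 passed the rule (median 0.04), and at E10 1 of 7 did (median 0.21). Smad4, the shared partner of receptor-activated Smads, was the most abundant, at 74.1 FPKM in wild type E8, 82.7 in Tc/Tc E8, 75.8 in wild type E10 and 95.6 in Tc/Tc E10. Foxh1, the DNA-binding partner of Smad2 and Smad3 in Nodal signalling, was at 12.6 FPKM in wild type E8, 24 in Tc/Tc E8, 0.706 in wild type E10 and 6.13 in Tc/Tc E10. It was higher in Tc/Tc at both stages, with log2 ratios of 0.88 and 2.06, of which the second passed the rule. Between the stages it was lower at E10, with log2 ratios of -2.99 (wild type) and -1.81 (Tc/Tc). The type I receptor Acvr1c was listed at 0 at E8 in both stage tables and was at 0.0239 and 0.0234 FPKM at E10.

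Of the convertases and extracellular partners, 1 of 5 passed at E8 (median 0.51) and none at E10 (median 0.57). That gene was Cer1, a secreted inhibitor of Nodal from the anterior visceral and definitive endoderm. It stood at 3.87 FPKM in wild type E8, 12.2 in Tc/Tc E8, 0.355 in wild type E10 and 1.01 in Tc/Tc E10. Its log2 ratio was 1.44 at E8 and 0.57 at E10. Furin, a protease that cleaves the Nodal precursor, was at 14.5 FPKM in wild type E8 and 21.9 in Tc/Tc E8, a log2 ratio of 0.56. Pcsk6, the other convertase, was at 1.52 and 1.9 FPKM.

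Of the genes that respond to Nodal, Eomes passed at E8 and Lhx1 at E10. At E8 1 of 6 measured was higher (median 0.23) and at E10 1 of 5 (median 0.11). Eomes, a T-box factor of the streak and also of trophoblast, was at 0.345 FPKM in wild type E8 and 4.65 in Tc/Tc E8, a log2 ratio of 2.07. Lhx1, a homeobox factor of the node and of intermediate mesoderm, was at 0.44 FPKM in wild type E10 and 3.25 in Tc/Tc E10, a log2 ratio of 1.56. Skil, a feedback repressor of Smads, was the most abundant in wild type E8, at 10.7 FPKM against 18.9 in Tc/Tc E8. Gsc, an organiser homeobox gene, stayed under 1 FPKM in each library.

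Node and notochord genes included 1 of 7 lower at E8 (median 0.33) and 3 of 6 higher at E10 (median 0.85). Shh, the signal of notochord and floor plate, was at 3.28 FPKM in wild type E8 and 0.193 in Tc/Tc E8, a log2 ratio of -1.84, and at 5.39 and 6.33 FPKM at E10. T was at 36.7 FPKM in wild type E8, 48.3 in Tc/Tc E8, 7.18 in wild type E10 and 30.4 in Tc/Tc E10, a level that does not tell the alleles apart. Foxa2, the forkhead factor of node, notochord and endoderm, was at 5.43 FPKM in wild type E8 and 7.1 in Tc/Tc E8, and at 3.03 and 8.28 at E10, where its log2 ratio was 1.20. Foxd4 was at 1.06 FPKM in Tc/Tc E10 and listed at 0 in wild type E10, a log2 ratio of 1.04 that centring brought to 0.88, below the rule. Shh, Nog and Sox17 stayed within the rule at E10, at log2 ratios of 0.20, 0.67 and 0.53, and Chrd was under 1 FPKM in both libraries. Noto, also under 1 FPKM, was at 0.306 FPKM in Tc/Tc E10 and listed at 0 in wild type E10.

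Among cilia and flow-sensing genes, Pkd1l1 alone passed the rule between genotypes. None of 13 measured passed at E8 (median -0.08) and 1 of 13 at E10 (median 0.04). Kif3a, a subunit of the kinesin that builds cilia, was the most abundant in wild type E8, at 24.9 FPKM against 18.3 in Tc/Tc E8. Dnah11, the dynein of nodal cilia, was at 0.68 FPKM in wild type E8 and 0.749 in Tc/Tc E8, and Foxj1, the regulator of motile cilia, at 0.201 and 0.763. Pkd1l1, a polycystin of the flow sensor, stood at 3.75 FPKM in wild type E8, 3.81 in Tc/Tc E8, 0.0682 in wild type E10 and 1.51 in Tc/Tc E10. Its genotype ratio was 0.02 at E8 and 1.23 at E10. Of the Notch genes that act on Nodal expression at the node, 1 of 4 was lower at E8 (median -0.19) and none passed at E10 (median 0.03). Dll1, the ligand, was at 20.7 FPKM in wild type E8 and 3.93 in Tc/Tc E8, and at 21.7 and 18.2 at E10.

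Markers of other tissues differed between the same libraries. Beside the counts of higher markers below, 4.21% of all measured genes were higher in Tc/Tc at E8 and 4.94% at E10. Of the visceral endoderm and yolk sac markers, 11 of 12 measured were higher in Tc/Tc at E8 and 13 of 13 at E10. Their summed level was 992 FPKM in wild type E8, 3130 in Tc/Tc E8, 20.6 in wild type E10 and 689 in Tc/Tc E10, and Apoa4, Apoc2, Amn and Spink3 were listed at 0 in wild type E10. Epiblast and germ cell markers were higher in Tc/Tc in 5 of 7 at E8 and 3 of 5 at E10, with sums of 301, 485, 76.5 and 234 FPKM in the same order of libraries. Lin28a alone gave 270, 303, 73.2 and 222 FPKM of these sums. Pou5f1 was at 18.9 FPKM in wild type E8 and 125 in Tc/Tc E8, and at 0.184 and 1.79 at E10. With the other tables the E8 count was 3 of 5, as Utf1 and Dppa4 had no ratio there. Utf1 and Dppa4 were listed at 0 in both wild-type libraries.

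Trophoblast markers were higher in 5 of 6 at E8 and 1 of 3 at E10. With the other tables the E8 count was 3 of 6, as Esx1 and Hand1 came to 0.95 and 0.99. The trophoblast sums, in the same order, were 41.7, 111, 15.3 and 54 FPKM. Gut and definitive endoderm markers, of which Sox17 is also on the node list, were higher in 2 of 7 at E8 and 4 of 6 at E10, with sums of 82, 144, 24.8 and 72.6 FPKM. Of the decidual markers 1 of 3 was higher at E8 and 1 of 2 at E10, with sums of 9.35, 13.2, 11.3 and 48.2 FPKM. The marker higher at E8 was Prl8a2, at 3.21 FPKM in Tc/Tc E8 and listed at 0 in wild type E8. Its other estimates gave no ratio. Cryab alone gave 45.9 FPKM of the Tc/Tc E10 sum. Its log2 ratio depends on the table: 2.30 at E10 and 0.23 at E8, but 1.47 and -0.50 with the other estimates. Dcn was at 2.8 FPKM in wild type E10 and 2.22 in Tc/Tc E10, and at 1.14 and 0.175 at E8. These sums differed between the same libraries in which Cer1 and Eomes were higher in Tc/Tc at E8, and Tdgf1, Dand5, Foxh1, Lhx1, T, Foxa2, Foxd4 and Pkd1l1 at E10. Tdgf1 was lower in Tc/Tc at E8, where 5 of 7 measured epiblast and germ cell markers were higher. At E10 Tdgf1 was higher, as were 3 of 5 of those markers. The part of these tissues in all of these results was not tested.

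Profiles over the 4 libraries were compared by the root mean square difference of log2(FPKM + 1) after centring each gene, among 14136 genes. Wnt5b, a non-canonical Wnt ligand, was nearest to Tdgf1, at 0.077. It stood at 10.4 FPKM in wild type E8, 2.99 in Tc/Tc E8, 3.54 in wild type E10 and 8.96 in Tc/Tc E10, so it too was high in wild type E8 and Tc/Tc E10. Gm15295 (0.103) and Vstm2b (0.131) followed. Nearest to Cfc1 were Ephx2 (0.040), Pcdh1 (0.055) and B4galnt3 (0.073), and nearest to Gdf1 were Trex1 (0.023), Ier2 (0.028) and Tmem91 (0.058). With 4 points a profile, likeness is a description of these libraries.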

How the data were processed

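The authors deposited 4 pairwise tables of FPKM, the natural log (ln) of the fold change and a p-value per gene, per the file headers. Bowtie2, Cuffdiff and the mouse build mm9 are named, per the submitters' processing notes. Their versions, the annotation, the treatment of shared reads and the depth: not given in the sources used here. Libraries were made from total RNA with a strand-specific kit, per the labels' protocols. Genotype values came from the genotype tables, the wild-type stages from their own table, and the Tc/Tc stages from Tc/Tc E10 of the genotype table and Tc/Tc E8 of the stage table. The number of columns of per-sample values left unused was 1: it is headed wild type E10 in the Tc/Tc stage table. The fold changes that the authors deposited there equal Tc/Tc E10 over Tc/Tc E8 within 0.01 for 86.1% of 17012 genes, and wild type E10 over Tc/Tc E8 for 2.37%.

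Ratios and counts were computed in Python 3.11.15 with pandas 2.3.3 and numpy 2.4.6. The size rule was also run on simulated data with large changes planted in genes of 1 FPKM or more. The noise there was small, so that run does not cover the error of these libraries. Members, lists and the rule for named genes (all 9 members, list genes past the size rule, the most abundant gene of a list, and the 3 nearest profiles) were chosen with earlier results of these data known; further list genes were named after their values were seen. Symbols missing from the files were matched by identifier (Dnah11, Dnah5, Tfap2c), from a GENCODE M21 name table that held 31838 of 36808 identifiers. Promoter windows (250 bases before to 50 after a start) are RefSeq's, on GRCm38.p6, and 6 of 9 genes had one. Absolute depth is unknown. The libraries' relative scale was read from 5704 genes under 2 FPKM in both E8 libraries, of which 77 shared a wild-type to Tc/Tc ratio of 0.981 (in a window of 0.002 on the ln scale), against at most 13 at nearby ratios. The shared ratio was 1.09 for the E10 libraries and 0.957 for wild type E8 over E10. Too few genes lie on such steps to recover whole reads. The values of 1 gene of the response list are not reported here.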

Additional observations from a re-analysis of the deposited data

Results flagged for a closer look

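Tdgf1 passed the size rule in opposite directions between the stages: the log2 ratio of Tc/Tc to wild type was -1.51 at E8 and 1.34 at E10. It also did so between the genotypes, with log2 ratios of E10 over E8 of -1.47 in wild type and 1.39 in Tc/Tc. Both pairs come from the same 4 libraries, 1 a group, and the difference between the ratios of a pair was not tested. For the single ratios, the authors' deposited tables give p-values of 0.267 at E8, 0.296 at E10, 0.266 in wild type and 0.295 in Tc/Tc. Over all genes, 0.28% showed the first pattern and 0.37% the second. The second estimates of Tdgf1 itself were the same for both low values, 0.248 and 0.289 FPKM.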

How the results depend on the processing

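No paired analysis was possible because each group has 1 library and the labels give no replicate numbers. No member or pathway gene past the size rule changed sign under any alternative run, but most of these runs could not change one. A pseudocount or a minimum cannot change a sign, and centring and rescaling shifted ratios by far less than the rule. The run with the other tables alone could have done so. Genes on the marker lists alone were left out of this sign check. Calls near the rule (Gdf1, Foxd4, Pmepa1, Ccdc40) did depend on the setting. The count of members past the rule depends on the pseudocount and the minimum, since all are low: with a pseudocount of 5, and with a minimum of 5 FPKM, it was 0 in each of the 4 comparisons. With a pseudocount of 0.1 it was 3 at E8 (Tdgf1, Gdf1 and Cfc1, at log2 ratios of -2.94, -1.57 and 1.09). Rescaled to equal totals, and centred on the median, it was 2 at E8 (Tdgf1 and Gdf1). The cause was not tested beyond what these settings change by construction.

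Of the pathway genes, with a pseudocount of 5 the counts past the rule were 1 at E8, 1 at E10, 2 in the wild-type stages and 4 in the Tc/Tc stages. With a minimum of 5 FPKM they were 2 at E8, 3 at E10 and 3 in the wild-type stages. With a pseudocount of 0.1 the Tc/Tc stages gave 11. Over all genes, a pseudocount of 0.1 gave 1560 at E8, 1758 at E10 and 2542 in the Tc/Tc stages. A pseudocount of 5 gave 307, 419, 624 in the wild-type stages and 543 in the Tc/Tc stages. A minimum of 5 FPKM gave 609, 741, 1065 and 1030. Values from the other tables, and no minimum, moved none of these counts, taken over both directions together, by over 1.5 times. The balance of directions did depend on the table. At E8 the other tables gave 358 higher and 419 lower genes, against 571 and 407. At E10 they gave 496 and 463, against 705 and 440. In the wild-type stages they gave 739 and 796, against 1048 and 734. The sum of Gdf1 and Lass1 was chosen after seeing the data. Low FPKM and unknown depth limit all members.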
